A study of Mus musculus with 13 samples.

Results

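The genes described here encode secreted factors that attract myeloid cells or make them grow, and there are 10 of them: the chemokines *Cxcl1*, *Cxcl2*, *Cxcl5*, *Ccl20*, *Ccl2* and *Ccl7*, the colony-stimulating factors *Csf1*, *Csf2* and *Csf3*, and the cytokine gene *Il6*. They were chosen by name, for what their proteins are known to do and with no threshold on a measured value, but with earlier results of these data known. Of the 10 genes, 9 were found among the 13222 genes listed in the expression table, and *Ccl7* was not analysed here. All 9 were among the 12319 genes kept for testing. *Ccl2*, *Csf2* and *Il6* reached the minimum number of reads only in libraries that had received doxorubicin, so they could be tested at all only because they were high there.

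Chemokines are small secreted proteins that steer leukocytes along a gradient. CXCL1, CXCL2 and CXCL5 act on CXCR2 and draw neutrophils, CCL20 acts on CCR6, found on Th17 cells and immature dendritic cells, and CCL2 and CCL7 act on CCR2 and draw monocytes. The colony-stimulating factors support the growth and survival of macrophages (CSF1), of macrophages, granulocytes and dendritic cells (CSF2) and of neutrophils (CSF3), and IL-6 drives acute phase and Th17 responses. IL-17A, a cytokine of Th17 and γδ T cells, is known to raise many of these genes in epithelial cells and fibroblasts through NF-κB and C/EBP factors and through longer-lived mRNA. 4T1 is a mammary carcinoma line of BALB/c mice, and doxorubicin (DOX) is an anthracycline that damages DNA.

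All libraries came from 1 line in culture, 4T1 cells with a Thy1.1 transgene, and they formed 4 groups: untreated control cells (n = 3), cells given 200 ng/mL DOX (n = 4), cells given 25 ng/mL recombinant mouse IL-17A (n = 3) and cells given both (DOX+IL-17A, n = 3), each for 48 h. Polyadenylated RNA was read from the 3′ end of transcripts, so the values are not scaled by transcript length. Values below are normalized expression values, which are reads per gene scaled to a common library size by TMM, a method that corrects for RNA composition. Libraries held 4445592 to 16930600 reads on listed genes, and 3 reads, taken as the smallest detectable amount, correspond to 0.183 to 0.613 normalized units. Control replicate 1 stood apart from the other control libraries, with a root mean square deviation of 0.72 (log2) from its group mean against 0.30 to 0.48 in the other 12 libraries.

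The design separates both agents. The effect of DOX was measured without IL-17A (DOX against control) and with it (DOX+IL-17A against IL-17A), and the effect of IL-17A without DOX (IL-17A against control) and with it (DOX+IL-17A against DOX). Averages of each pair of effects and the difference between the IL-17A effects were taken from the same fit. These comparisons share libraries and are therefore not independent of each other. Changes are given on the log2(value + 1) scale, which understates the change of genes with few reads. A gene was called at a Benjamini-Hochberg adjusted p under 0.05 with a fold change above 2 (limma).

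DOX alone raised 8 of the 9 genes, all except *Csf3*. In this comparison 9.15% of all tested genes were called higher. The 8 genes also had DOX libraries that all lay above all control libraries, which held for 18.5% of all tested genes. The median log2 fold change over the 9 genes was 2.09, against 0.09 over all tested genes. In the presence of IL-17A, DOX raised *Cxcl2*, *Ccl20*, *Ccl2*, *Csf2* and *Il6*, 5 of the 9, with 4.92% of all tested genes called higher and a median of 1.98 over the 9 genes against 0.02. Both counts and both medians include *Ccl2*, *Csf2* and *Il6*, which were kept for testing only through libraries with DOX. Apart from these, the genes called were *Cxcl1*, *Cxcl2*, *Cxcl5*, *Ccl20* and *Csf1* without IL-17A, and *Cxcl2* and *Ccl20* with it. With the replicate number as a block, DOX alone raised 6 of the 9, no longer *Csf1* and *Csf2*, with 11.2% of all tested genes called in either direction. Number 4 occurs only in the DOX group, so with the block DOX replicate 4 carried no weight in this comparison. In the presence of IL-17A the block added *Cxcl1* and *Csf3*, 7 of the 9, with 11% of all tested genes called. That replicate numbers pair libraries was inferred from these data and is not given by the labels. In the comparison of both agents with IL-17A alone, 6 genes (*Cxcl2*, *Ccl20*, *Ccl2*, *Csf2*, *Il6* and *Csf3*) had libraries with both agents that all lay above all IL-17A libraries. The same held for 16.4% of all tested genes. Without control replicate 1 and DOX replicate 1, a pair left out after the data had been seen, the counts for DOX without and with IL-17A were 6 and 6. In that setting 13.2% and 12.5% of all tested genes were called in either direction.

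IL-17A alone gave 0 calls among the 9 genes in limma, where 3 of them (*Cxcl1*, *Cxcl2* and *Cxcl5*) had an unadjusted p under 0.05, as did 3.08% of all tested genes. DESeq2 called 1, *Cxcl5*, with 0.122% of all tested genes called in either direction, and edgeR's quasi-likelihood test and voom with limma called 0. In limma 0.00812% of all tested genes were called higher. IL-17A libraries stood clear above control for *Cxcl5* alone among the 9, against 3.17% of all tested genes. With DOX present, IL-17A again gave 0 calls among the 9 in limma, and 6 of them had an unadjusted p under 0.05, as did 6.35% of all tested genes. DESeq2 called 1 (*Cxcl5*), with 0.755% of all tested genes called in either direction, and edgeR's quasi-likelihood test and voom with limma called 0. With DOX present, limma called 0.114% of all tested genes higher. The libraries with both agents lay above all DOX libraries for *Cxcl2*, *Cxcl5*, *Csf2*, *Csf3* and *Il6*, 5 of the 9 genes, against 4.66% of all tested genes. Averaged over both settings, DOX raised 7 genes (*Cxcl1*, *Cxcl2*, *Cxcl5*, *Ccl20*, *Ccl2*, *Csf2* and *Il6*, against 8.27% of all tested genes called higher and 6.1% called lower) and IL-17A raised 1, *Cxcl5* (against 0.114% called higher). The DOX count again includes *Ccl2*, *Csf2* and *Il6*, kept only through libraries with DOX.

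**Figure D1:**
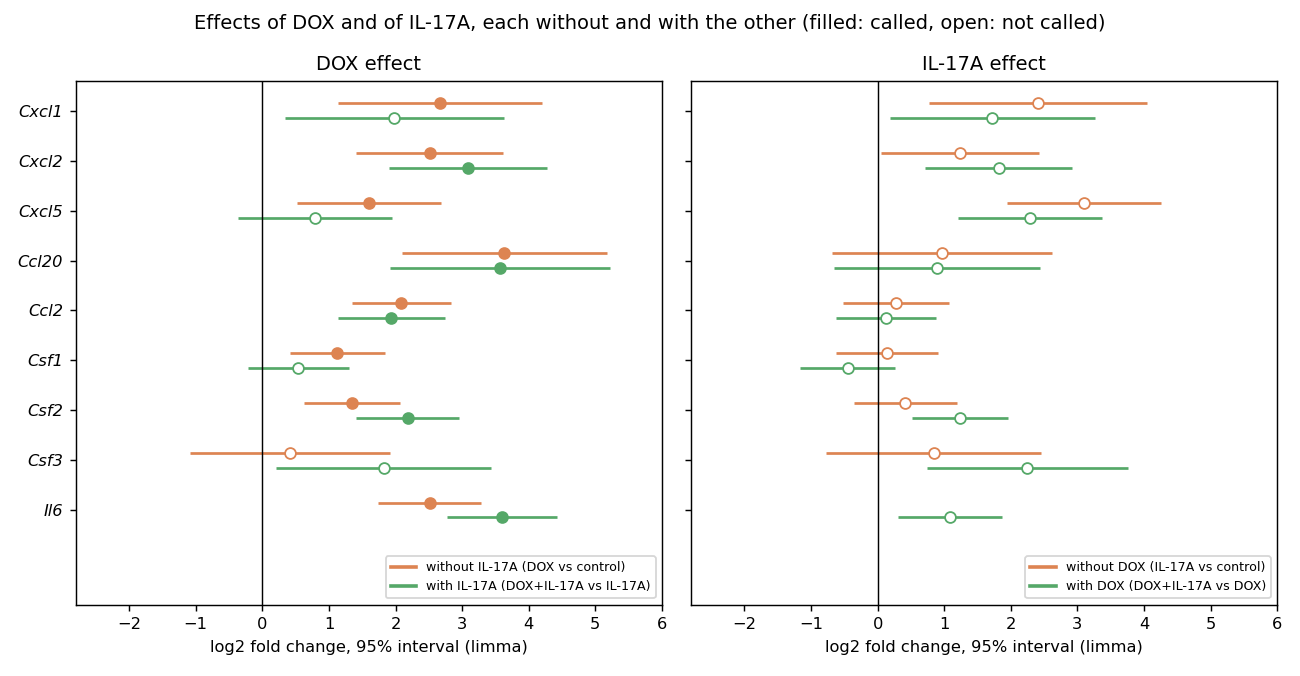
Log2 fold change of each gene with its 95% interval from limma, on the left for DOX and on the right for IL-17A, each without and with the other agent, with filled points for called genes. All DOX estimates lie above 0, with 8 filled points without IL-17A and 5 with it, whereas 0 IL-17A points are filled. Il6 has no point for IL-17A against control because it had 0 reads in both groups.

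The first group of genes holds the CXCR2 ligands, which lie close together on chromosome 5 of mm10. *Cxcl5* spans chr5:90759360-90761624, *Cxcl1* chr5:90891241-90893115 and *Cxcl2* chr5:90903871-90905938, all on the plus strand (GENCODE annotation). The 250 bases before the RefSeq start of *Cxcl1* (chr5:90890995-90891244) and *Cxcl2* (chr5:90903649-90903898), plus strand, from RefSeq on GRCm38.p6, whose starts lie 4 and 28 bases downstream of the GENCODE starts, are shown because they share a match to the NF-κB motif letters (GGGA, any base, then TTTCC), which capitals mark.
Cxcl1: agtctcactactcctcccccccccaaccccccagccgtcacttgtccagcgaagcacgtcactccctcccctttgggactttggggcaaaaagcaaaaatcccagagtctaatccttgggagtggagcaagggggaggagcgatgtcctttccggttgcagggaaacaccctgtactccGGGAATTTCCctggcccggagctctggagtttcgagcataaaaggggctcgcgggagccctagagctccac
Cxcl2: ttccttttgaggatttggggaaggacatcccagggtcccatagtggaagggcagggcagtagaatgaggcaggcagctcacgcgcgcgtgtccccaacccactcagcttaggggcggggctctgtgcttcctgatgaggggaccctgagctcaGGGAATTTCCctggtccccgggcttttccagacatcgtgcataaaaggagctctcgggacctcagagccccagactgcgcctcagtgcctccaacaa
The matches lie 71 to 62 bases before the RefSeq start of *Cxcl1* and 97 to 88 bases before that of *Cxcl2*, and both read GGGAATTTCC. Of the 32851 promoters in the table, 0.356% hold these letters on either strand in the same window. Sequences were found for 6 of the 10 genes, and the motif letters were chosen after these had been read. A match is no measured binding site.

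*Cxcl5* was the most abundant of the 9 genes and the one with the clearest IL-17A effect. Its values were 319, 420.5 and 357 in control replicates 1, 3 and 5, and 5809, 3288 and 1598 in IL-17A replicates 2, 3 and 5. In DOX replicates 1 to 4 they were 2127, 2442, 540.1 and 525, and in DOX+IL-17A replicates 2, 3 and 5 they were 5683, 4824 and 5733. Every treated library lay above every control library, DOX and IL-17A libraries overlapped, and libraries with both agents exceeded every DOX library but not the highest IL-17A library. The DOX libraries fell into a higher pair (replicates 1 and 2) and a lower pair (replicates 3 and 4), whereas the DOX+IL-17A libraries varied little (coefficient of variation 9.43%, n = 3). *Cxcl5* took 0.0346% of the reads on listed genes in control cells and 0.576% ± 0.0455 (SD, n = 3) with both agents, where it ranked 5 among the 13222 genes by mean value, from 505 in control.

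On average IL-17A raised *Cxcl5* by 2.70 on the log2 scale, with a standard error of 0.37 and an adjusted p of 0.0071 in limma, and it was called with each library left out in turn, at 2.47 to 2.94. By itself IL-17A changed the mean 9.75 times (log2 3.10, 95% interval 1.94 to 4.26, adjusted p = 0.22), and with DOX 3.84 times (log2 2.29, interval 1.21 to 3.38, adjusted p = 0.076). The latter passed the threshold without control replicate 1 (adjusted p = 0.033), DOX replicate 1 (0.043) or DOX replicate 2 (0.027). DOX alone raised *Cxcl5* 3.85 times in the mean (log2 1.60, adjusted p = 0.036). This call was lost without control replicate 1 (adjusted p = 0.061), control replicate 5 (0.083), DOX replicate 1 (0.10) or DOX replicate 2 (0.10), and in a fit of only these groups (0.064). In the presence of IL-17A the DOX effect on *Cxcl5* was 0.79 (interval -0.37 to 1.95, adjusted p = 0.37). The average DOX effect was 1.19 (adjusted p = 0.022), and without IL-17A replicate 5 it was 0.95 (adjusted p = 0.063).

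*Cxcl1* gave 24.7, 46.9 and 23.7 in control replicates 1, 3 and 5, and 359, 501, 97.9 and 84.9 in DOX replicates 1 to 4. With IL-17A its values were 588, 169.8 and 44.1, and with both agents 1000.4, 724 and 384, each in replicates 2, 3 and 5. IL-17A replicate 5 lay within the control range, while IL-17A replicate 2 was above every DOX library. The means ran from control (31.8 ± 13.1, SD, n = 3) over DOX (261 ± 204, n = 4) and IL-17A (267 ± 284, n = 3) to both agents (703 ± 309, n = 3). In this order control and DOX did not overlap, and the later neighbours did. DOX raised *Cxcl1* by 2.66 on the log2 scale (standard error 0.72, adjusted p = 0.017, limma). The adjusted p was 0.057 without control replicate 5 and 0.052 without DOX replicate 2. In the presence of IL-17A the DOX effect was 1.98 (interval 0.34 to 3.62, adjusted p = 0.10), the same estimate was called with the replicate number as a block (adjusted p = 0.018), and without IL-17A replicate 2 it was 2.90 (adjusted p = 0.022). The IL-17A effects on *Cxcl1*, 2.41 without DOX (interval 0.77 to 4.05) and 1.72 with it (0.19 to 3.26), had adjusted p-values of 0.96 and 0.68.

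*Cxcl2* had lower values than *Cxcl1*. In control cells they were 4.57, 1.46 and 3.18, and the IL-17A values were 20.5, 6.60 and 3.61. With DOX they were 27.9, 37.9, 18.7 and 9.57, and with both agents 108, 85.7 and 48.1. The means ran in the order control, IL-17A, DOX and DOX+IL-17A. IL-17A overlapped its neighbours on both sides, and the libraries with both agents stood clear of all others. DOX raised *Cxcl2* without IL-17A (log2 2.51, standard error 0.52, adjusted p = 0.0038, limma) and with it (3.09, standard error 0.56, adjusted p = 0.0029), and each call held with every library left out in turn. The IL-17A effect with DOX was 1.82 (interval 0.71 to 2.92), a ratio of means of 3.43, with an adjusted p of 0.25, and of 0.050 in a fit of only these groups.

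**Figure D2:**
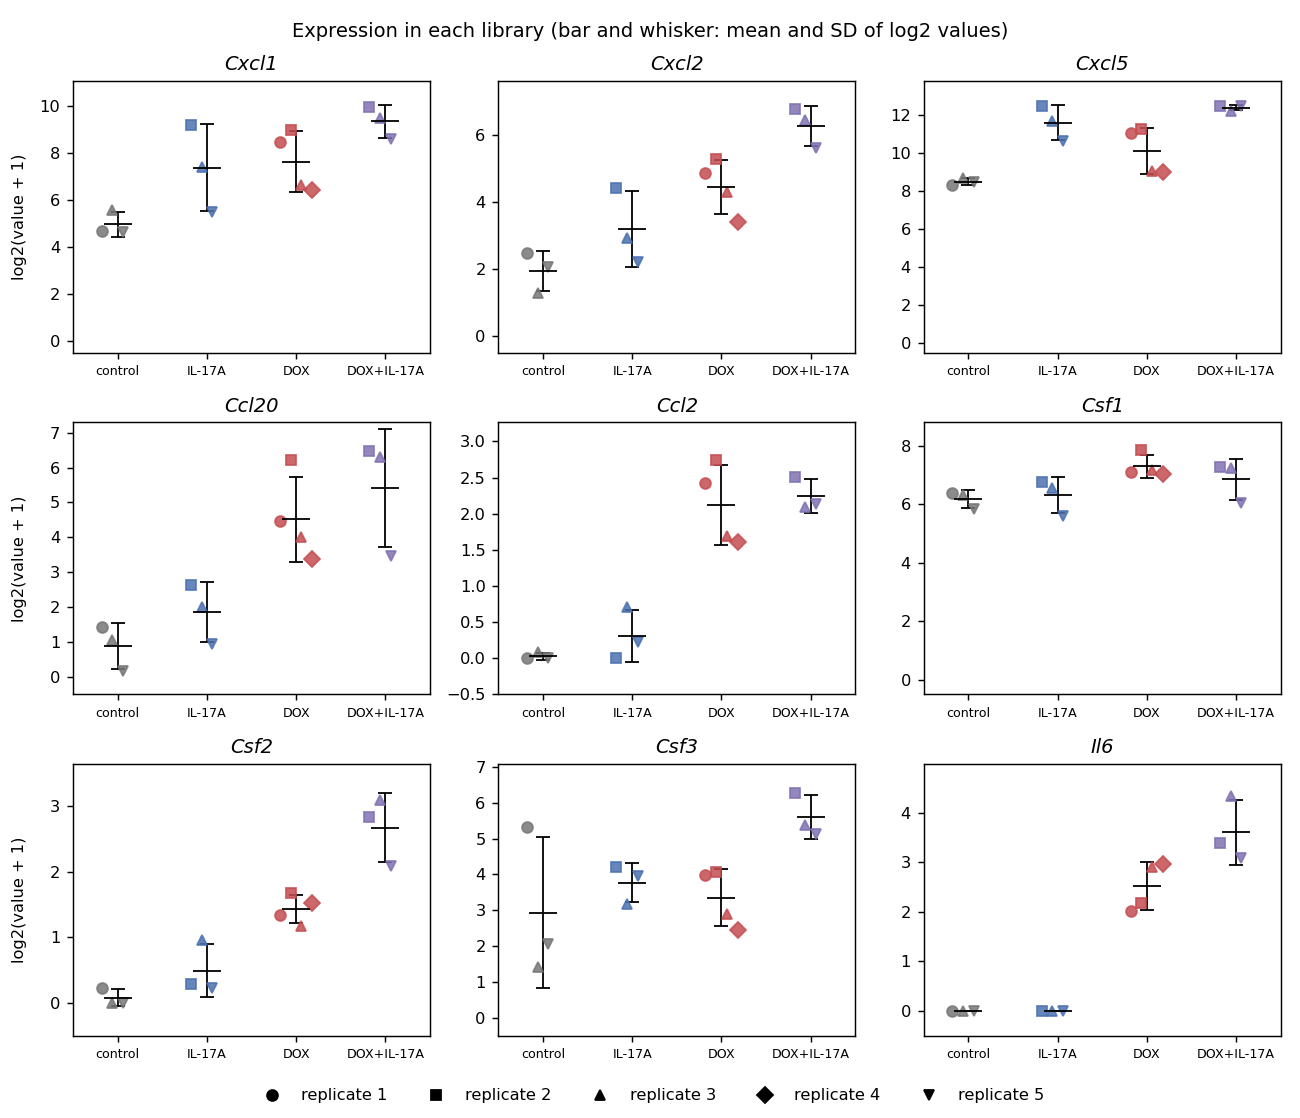
Log2(value + 1) of the 9 genes in each of the 13 libraries, by group, where the symbol gives the replicate number, the bar the mean and the whisker the SD of the log2 values. Cxcl5 lies high with either agent, Il6 is at 0 in all 6 libraries without DOX, and the control point of replicate 1 stands alone in the panel of Csf3.

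*Ccl20*, the ligand of CCR6 (chr1:83116766-83119167, plus strand), had an average DOX effect of 3.60 (standard error 0.53, adjusted p = 0.00014, limma). This was the largest of the 9 on the log2(value + 1) scale only, since with a pseudocount of 0.1 it was 4.42 against 6.19 for *Il6*, and with voom on reads 4.44 against 7.01 for *Il6* and 4.85 for *Ccl2*. Its values were 1.69, 1.096 and 0.118 in control cells, from 10, 18 and 1 reads, and 5.18, 2.99 and 0.902 with IL-17A. With DOX they were 21.1, 73.5, 15.2 and 9.39, and with both agents 87.9, 78.6 and 9.99. All 7 libraries with DOX lay above all 6 without it, and within either state the groups with and without IL-17A overlapped. DOX raised it 30.8 times in the mean without IL-17A (log2 3.63, adjusted p = 0.0031) and 19.5 times with it (log2 3.57, adjusted p = 0.0087). With voom and limma on the reads these adjusted p-values were 0.099 and 0.074. The IL-17A effects on *Ccl20* were 0.96 (interval -0.69 to 2.62) and 0.90 (interval -0.65 to 2.44), and did not pass.

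*Ccl2*, which draws monocytes through CCR2, lies on chromosome 11 (chr11:82035571-82037453, plus strand). The gene Gm17268 overlaps it on the other strand, and strand-specific counting is not given in the sources used here, so reads of either gene could be counted for it. *Ccl2* had 1 read in the 3 control libraries together and 6 in the 3 IL-17A libraries, with values of 0, 0.0609 and 0 in control and of 0, 0.629 and 0.164 with IL-17A. DOX gave 4.35, 5.69, 2.24 and 2.06, and both agents gave 4.70, 3.28 and 3.37. The groups with DOX overlapped each other and stood clear of those without it. Over summed reads the DOX value was 112 times that of control (counting interval 19.8 to 4454), and with IL-17A present 16.2 times (7.22 to 45.2). These intervals cover counting error only and not the spread between libraries. Copies of 1 molecule could not be told apart from separate molecules, so the counting error itself may be understated. DOX raised *Ccl2* by 2.09 (adjusted p = 0.00097, limma) and 1.94 (adjusted p = 0.0047) on the log2 scale, and the IL-17A effect with DOX was 0.13 (interval -0.62 to 0.87). Because *Ccl2* was kept for testing only through libraries with DOX, its p-values for DOX are no independent support. No fold is given for IL-17A against control, where both means lay under 3 reads per library.

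Among the colony-stimulating factors, *Csf1* was expressed in every library (chr3:107741048-107760469, minus strand). Control values were 82.6, 78.3 and 55.8, and IL-17A values 108, 93.1 and 47.7. With DOX they were 138, 234, 143 and 131, and with both agents 155, 151 and 64.5. The DOX libraries were all above the control libraries, whereas DOX+IL-17A replicate 5 fell within the control range. DOX alone raised *Csf1* 2.24 times in the mean (log2 1.13, standard error 0.34, adjusted p = 0.026, limma), and the call was lost without control replicate 5 (adjusted p = 0.10) or DOX replicate 2 (adjusted p = 0.077). It was also lost with the replicate number as a block, where DOX replicate 4 carried no weight and the log2 change was 0.81, under the required fold change. With IL-17A the DOX effect was 0.54 (interval -0.221 to 1.304), and on average 0.83 (adjusted p = 0.016), under the required fold change. That average was 1.03 under library-size scaling and 1.04 without DOX+IL-17A replicate 5, past both thresholds. The IL-17A effects on *Csf1* were 0.14 without DOX and -0.45 with it, and neither passed.

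*Csf2*, the gene of GM-CSF (chr11:54247271-54249667, minus strand), had 1 read in control libraries in all and 10 in IL-17A libraries, with values of 0.169, 0 and 0, and of 0.225, 0.943 and 0.164. DOX gave 1.53, 2.19, 1.26 and 1.88, from 9 to 21 reads, and both agents gave 6.13, 7.55 and 3.25, from 30 to 76 reads. The groups stood clear of each other except control and IL-17A. DOX raised *Csf2* by 1.35 (standard error 0.34, adjusted p = 0.011, limma) without IL-17A and by 2.18 (standard error 0.36, adjusted p = 0.0019) with it. Over summed reads these were ratios of 53.3 (counting interval 9.25 to 2135) and 14.0 (7.41 to 29.7). Because *Csf2* was kept for testing only through libraries with DOX, its p-values for DOX are no independent support. With DOX present the mean was 3.29 times as high with IL-17A as without (log2 1.24, interval 0.52 to 1.96, adjusted p = 0.22).

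*Csf3*, the gene of G-CSF (chr11:98701263-98703629, plus strand), depended on 1 library. Control replicates 1, 3 and 5 gave 39.2, 1.64 and 3.18, so that replicate 1 was 23.9 times replicate 3. IL-17A gave 17.3, 8.02 and 14.4, DOX 14.8, 15.7, 6.43 and 4.47, and both agents 76.7, 40.8 and 33.6. The libraries with both agents were all above those with either agent alone, and control replicate 1 reached into their range. With all libraries and without the replicate block, no comparison passed in limma on log2(value + 1). By contrast, voom with limma called the average DOX effect (1.48, adjusted p = 0.030), and a fit of only the groups compared called DOX+IL-17A against DOX (adjusted p = 0.020). DOX against control was 0.41 (interval -1.09 to 1.92, adjusted p = 0.71, limma), and DOX+IL-17A against DOX was 2.25 (interval 0.74 to 3.75, adjusted p = 0.35), a ratio of means of 4.87. DOX with IL-17A present gave 1.82 in either fit, called with the replicate number as a block (adjusted p = 0.023). Without control replicate 1, DOX alone gave 1.61 (adjusted p = 0.022), DOX with IL-17A 1.82 (adjusted p = 0.0081), IL-17A with DOX 2.25 (adjusted p = 0.013) and the average IL-17A effect 2.14 (adjusted p = 0.0046). By edgeR and DESeq2, which work on reads, the DOX effect with all libraries was negative (-0.47 and -0.57).

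*Il6* (chr5:30013114-30019981, plus strand) was not detected in any of the 6 libraries without DOX. The DOX libraries gave 3.06, 3.50, 6.43 and 6.80, from 32 to 76 reads, and those with both agents 9.41, 19.2 and 7.49, from 46 to 193 reads. The groups with and without IL-17A did not overlap among the DOX-treated libraries. Against 3 reads per library, *Il6* was at least 14.2-fold higher with DOX than in control and at least 34.2-fold higher with both agents than with IL-17A alone. The log2 changes were 2.51 (standard error 0.36, adjusted p = 0.00036, limma) and 3.60 (standard error 0.39, adjusted p = 7.4e-05). *Il6* was kept for testing only through libraries with DOX, so these p-values are no independent support for a rise with DOX. With DOX present, IL-17A went with a mean 2.43 times as high (log2 1.09, interval 0.31 to 1.86, adjusted p = 0.43). The 250 bases before its start (chr5:30012864-30013113, plus strand, RefSeq on GRCm38.p6) are shown because they hold all 3 motifs searched, an NF-κB match GGGATTTTCC at 44 to 35 bases, an AP-1 match (TGANTCA, 6.75% of promoters) at 249 to 243 and a C/EBP match (TTGNGCAA, 2.61% of promoters) at 128 to 121.
Il6: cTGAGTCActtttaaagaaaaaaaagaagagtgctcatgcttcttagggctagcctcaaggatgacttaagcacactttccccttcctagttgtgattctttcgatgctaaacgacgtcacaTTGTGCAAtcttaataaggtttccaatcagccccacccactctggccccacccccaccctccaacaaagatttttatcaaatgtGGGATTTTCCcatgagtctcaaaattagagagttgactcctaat
The AP-1 and C/EBP letters were searched on both strands and the matches do not overlap. Of the other promoters, *Csf1* holds the NF-κB letters, *Csf2* the C/EBP letters and *Ccl20* none, which says only that these letters are not in this window. The RefSeq start of *Csf2* lies 232 bases upstream of its GENCODE start, so the bases just before the GENCODE start were not searched.

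The difference between the IL-17A effects with and without DOX, which equals the difference between the DOX effects with and without IL-17A, was called for 0 of the 9 genes in limma, at an unadjusted p under 0.05 for 0 as well, and for 0 by voom with limma, edgeR's quasi-likelihood test and DESeq2. Of all tested genes, 4.51% had an unadjusted p under 0.05. The estimates ran from -0.81 for *Cxcl5* (interval -2.40 to 0.78) to 1.41 for *Csf3* (interval -0.80 to 3.61). For *Il6* it was 1.09 (interval -0.05 to 2.22), where the value without DOX is fixed at 0 by the absence of reads. The intervals span up to several log2 units, so with 3 or 4 libraries a group neither additive nor unequal effects were shown for any of the 9.

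**Figure D3:**
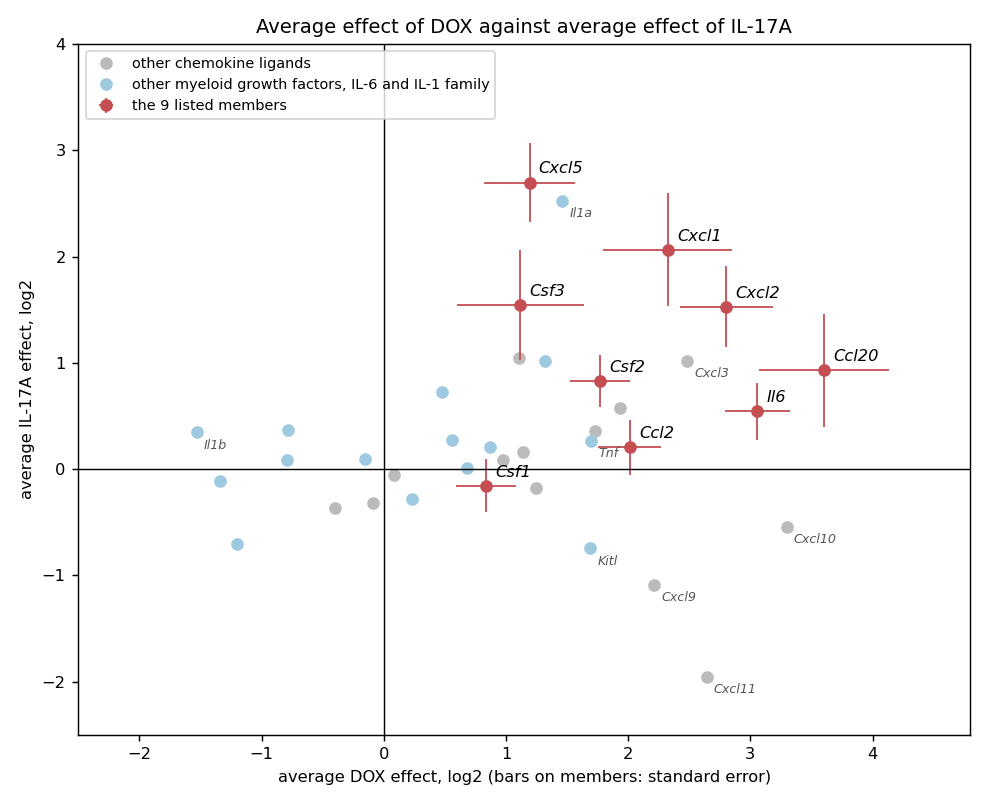
Average DOX effect (x) and average IL-17A effect (y) on the log2 scale, for the 9 genes (red, bars are standard errors), other chemokines (grey) and other growth factors and cytokines (blue). Cxcl5 stands highest on the IL-17A axis at 2.70, Ccl20 and Il6 are the farthest of the 9 on the DOX axis at 3.60 and 3.06 with Cxcl10 between them at 3.30, and Cxcl11, Cxcl9 and Cxcl10 lie below 0 on the IL-17A axis.

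The order of the libraries within a treated group was much alike from gene to gene. In control, the highest library was replicate 1 for 5 of the 8 genes with reads and replicate 3 for 3. Replicate 2 was the highest DOX library for 8 of the 9 genes, the highest DOX+IL-17A library for 6 of the 9 and the highest IL-17A library for 6 of the 8 genes with reads. The lowest was DOX replicate 4 for 7 genes, DOX+IL-17A replicate 5 for 7 and IL-17A replicate 5 for 6. *Il6* departed from this, with its highest DOX value in replicate 4. Whether equal replicate numbers mark a shared plate or day is not stated, and p-values measure only the spread between these libraries.

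**Figure D4:**
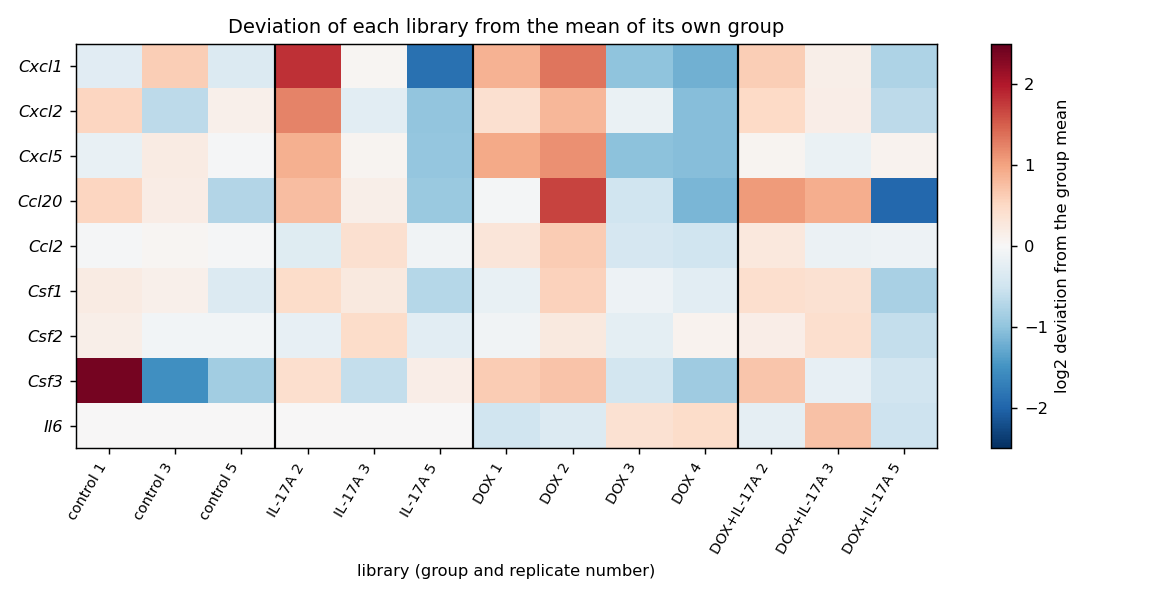
Deviation of each library from the mean of its own group (log2, red higher, blue lower) for the 9 genes, with black lines between groups. Cxcl1, Cxcl2 and Ccl20 deviate upwards in replicate 2 of each treated group, and Csf3 in control replicate 1 has the strongest colour.

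The genes whose pattern was most like each of the 9 were found by the mean absolute difference of centred log2 values over the 13 libraries. *Cxcl1* was nearest to *Cebpd* (0.45), which encodes a C/EBP transcription factor, *Cxcl2* (0.64) and *Il1a* (0.67). *Cxcl2* was nearest to *Cebpd* (0.39), *Selp* (0.46) and *Il13ra2* (0.54). For *Cxcl5* the nearest were *Il1a* (0.41), *Zc3h12a* (0.52), which encodes the RNase Regnase-1, and *Ehf* (0.63), an epithelial ETS factor. *Ccl20* was nearest to *Selp* (0.72), *Cxcl2* (0.73) and *Cxcl3* (0.74). *Il6* was nearest to *Edn1* (0.40), *Abcg2* (0.44) and *Sycp1* (0.44), *Ccl2* to *Relt*, *Nubp2* and *Nfkbib* (all 0.27 to 0.28), and *Csf2* to *Pla1a*, *Adamts4* and *Fndc7* (0.30 to 0.32). *Csf1* was nearest to *Tomm40*, *Wdr75* and *Med17* (0.17 to 0.19) and *Csf3* to *1110008P14Rik*, *Snora75* and *Igfbp3* (0.47 to 0.62). Small distances of *Csf1*, *Csf2* and *Ccl2* go with their small spread over the libraries.

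Other chemokines gave a point of reference. Of 32 further ligands 14 were listed and 13 tested, and DOX alone raised 9 and lowered 0 (median log2 fold change 1.39). In this comparison 9.15% of all tested genes were called higher. In libraries without DOX, *Ccl4* was at most 0.169, *Cxcl9* at most 0.943 and *Ccl17* at most 1.69. The limit given for *Ccl2*, *Csf2* and *Il6*, kept for testing through libraries with DOX, therefore applies to them as well. *Cxcl10*, *Cxcl11* and *Cxcl9*, the CXCR3 ligands that draw T cells and are induced by interferon, rose by 4.31, 3.43 and 3.40 (adjusted p at most 0.00018, limma), and *Cxcl3*, a CXCR2 ligand, by 2.40 (adjusted p = 0.049). IL-17A in the presence of DOX lowered 2 of the 13, *Cxcl11* (-2.74, adjusted p = 0.011) and *Cxcl9* (-2.27, adjusted p = 0.041), with 0.325% of all tested genes called lower, where IL-17A gave 0 calls among the 9 genes in either direction. *Cxcl11* had a mean of 45.7 ± 27.1 (SD, n = 4) in DOX libraries and of 5.21 ± 0.561 (SD, n = 3) in those with both agents. *Cxcl3* was at 13.8 ± 23.0 and 15.3 ± 9.09 in these groups. With IL-17A present DOX raised 4 of the 13, *Cxcl10* (2.28), *Cxcl16* (1.88), *Cxcl11* (1.86) and *Ccl17* (1.71), with 4.92% of all tested genes called higher.

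Among 15 tested growth factors and cytokines of 28 in the list, DOX alone raised 3 and lowered 2, where 9.15% of all tested genes were called higher and 6.18% lower. *Tnf* rose by 1.56, *Il1a* by 1.52 and *Kitl*, the gene of stem cell factor, by 1.31, and *Il1b* fell by 1.21 (adjusted p at most 0.041, limma). With IL-17A present DOX raised 4, among them *Kitl* (2.06), *Tnf* (1.83) and *Il33* (1.74), and lowered 3, among them *Il1b* (-1.85). There 4.92% of all tested genes were called higher and 4.92% lower. In libraries without DOX, *Tnf* was at most 0.314 and *Il33* at most 1.48, so the limit given for *Ccl2*, *Csf2* and *Il6* applies to them as well. IL-17A raised *Il1a*, the gene of the alarmin IL-1α, with DOX present (2.46, adjusted p = 0.042) and on average (2.52, adjusted p = 0.0087). Of 17 regulators of cytokine mRNA and their signals, all tested, IL-17A on average raised *Zc3h12a* (1.92, adjusted p = 0.0071) and *Nfkbiz*, the gene of the NF-κB cofactor IκBζ (1.75, adjusted p = 0.023). Of 15 receptor genes 5 were listed, and *Csf1r*, the receptor of CSF1 and also a macrophage marker, was lower with IL-17A on average (-1.62, adjusted p = 0.048). *Cxcr2*, the receptor of CXCL1, CXCL2 and CXCL5, was at 0.157 to 3.50 in every library.

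Markers of the labelled cell type were present, with all 8 epithelial markers listed and a summed value of 1767 to 2364 without DOX and 924 to 1178 with it. Macrophage or monocyte markers, of which 8 of 10 were listed, summed to 30.4 to 40.4 in libraries without DOX and 61.5 to 103 in those with it, so they moved with the DOX groups. *Ptprc*, the pan-leukocyte gene, was at 2.45 to 3.57 with both agents and at 0 to 1.52 in all other libraries, so it moved with that group. Other markers of this list did not share its pattern. *Cd68* was at 0 to 6.27 in control, 4.68 to 13.07 with IL-17A, 9.09 to 17.96 with DOX and 6.16 to 6.87 with both agents. *Csf1r* was at 2.14 to 9.55 in libraries given IL-17A and at 14.07 or more in the others. *Fcgr3* was highest in control replicate 1 (1.86). *Mrc1* was at 0.225 to 2.22 without DOX and 2.66 to 10.13 with it. *Cd14* was at 1.18 to 5.66 in control, 7.06 to 12.3 with IL-17A, 7.55 to 24.9 with DOX and 19.8 to 44.2 with both agents, and *Cd74*, of antigen presentation, at 3.38 to 17.6 without DOX and 9.53 to 28.5 with it. *Itgam* was at 0 to 1.42, and *Adgre1* and *Lyz2* were not analysed here. Of 8 neutrophil markers 3 were listed, and they summed to 0.731 to 2.48 without DOX and 2.94 to 21.3 with it, highest in DOX replicate 1. T cell markers (3 of 8 listed, with *Thy1*, which the line carries as a transgene) summed to 70.8 to 214, and fibroblast or endothelial markers (4 of 8) to 23.7 to 105. DOX replicate 1 also had a sum of 268 for muscle markers, against at most 40.4 elsewhere, and of 66.5 for red blood cell markers, against at most 14.4. Whether cells of these other types were present, and any part of them in the changes, was not tested. In bulk RNA more cells of a type and more RNA per cell cannot be told apart. Without control replicate 1 and DOX replicate 1, *Ccl20*, *Ccl2*, *Cxcl2*, *Csf1*, *Csf2* and *Il6* remained called higher with DOX alone, and *Cxcl1* (2.24, adjusted p = 0.074, limma, against 2.66 with all libraries) and *Cxcl5* (1.19, adjusted p = 0.15, against 1.60) did not.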

How the data were processed

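RNA of 13 cultures of 4T1 cells in 4 groups was measured, and each library was assigned to its group by its title. The authors made QuantSeq 3′ libraries, sequenced them, aligned the reads to mm10 with STAR, counted them per gene with featureCounts and normalized by TMM. The deposited table holds the resulting signal per gene and library, with 13223 entries, of which 1 duplicate was dropped. Columns of the authors' own comparisons were not used. All values (100%, tolerance 0.02 reads) were whole multiples of 1 read per library, so reads were recovered.

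The main test was limma 3.58.1 with trend on log2(value + 1), with group as the only factor and all 13 libraries, over the 12319 genes kept by filterByExpr of edgeR 4.0.16 (minimum count 10), with 9 residual degrees of freedom. P-values were adjusted by Benjamini-Hochberg over all tested genes. The 95% intervals are those of limma. Intervals of ratios of reads are exact Poisson intervals and cover counting error only. Alternatives were voom with limma, edgeR's quasi-likelihood test and DESeq2 1.42.0, run on recovered reads, library-size scaling, filtering of low genes by a mean of 10 reads or not at all, 0.1 as the pseudocount, only the groups compared, a replicate block, the adjusted p alone, and each library left out. Leaving out control replicate 1 with DOX replicate 1 was added after the data were seen. The deviations from the group means of same-numbered libraries correlated over 0.1 in all 3 pairs of DOX+IL-17A with IL-17A (0.17 to 0.35). So did 13 of the 50 pairs of unlike number over all groups (up to 0.47). Whether the numbers pair libraries was judged from these data and not from the labels, and the block was fitted over all 13 libraries. The tests were checked on simulated data. The genes and lists were chosen with earlier results of these data known. All 10 genes are named. From other lists, called genes are named, up to 4 per list and comparison by size of change, and 3 genes of most similar pattern are named per gene, among those with at least 1/2 of its SD. *5830473C10Rik*, *Epgn*, *Mthfd2l*, *Ppbp* and *Rassf6*, as well as *Cxcr2* and the values of single markers, were added after their values were seen. Figures were drawn with matplotlib 3.10.9. R 4.3.3, python 3.11.15 and pandas 2.3.3 were used.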

Additional observations from a re-analysis of the deposited data

Results flagged for a closer look

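*Csf1* in the DOX libraries was flagged because 1 of the 4 lay far from the rest. DOX replicate 2 had a value of 234, against 131 to 143 in the other 3, and its gap was 0.876 of the group's range, above Dixon's 95% critical value for 4 samples. The test was run for 9 genes in this group, and chance flags about 1 in 20 groups. Without DOX replicate 2 the log2 fold change of *Csf1* for DOX against control was 0.94 (limma, adjusted p = 0.077), against 1.13 with it (adjusted p = 0.026).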

How the results depend on the processing

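Counts of called genes among the 9 moved beyond 1.5 times as follows. DESeq2 called 1 for IL-17A against control and 1 for DOX+IL-17A against DOX (0 each in limma), and 3 for the average IL-17A effect (1 in limma). Of all tested genes DESeq2 called 0.122%, 0.755% and 0.414% in these, in either direction. A fit of only the groups compared called 3 for DOX+IL-17A against DOX (*Cxcl2*, *Cxcl5*, *Csf3*), and 0.706% of all tested genes. Without control replicate 1 and DOX replicate 1 together, 2 were called for DOX+IL-17A against DOX and 2 for the average IL-17A effect. There 0.69% and 0.195% of all tested genes were called. With each library left out, the counts lay between 5 and 8 for DOX against control, 0 and 2 for DOX+IL-17A against DOX and 1 and 2 for the average IL-17A effect. The lowest count for DOX, 5, came without control replicate 5 or DOX replicate 2, where 12.3% and 12.8% of all tested genes were called in either direction. The cause was not tested.

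Directions reversed as follows. The difference between the IL-17A effects for *Csf2* (0.83) was -0.757 by voom, -1.41 by edgeR, -1.64 by DESeq2 and -0.0777 with a pseudocount of 0.1, and for *Cxcl2* (0.58) it was -0.0172 by edgeR. *Csf3* gave -0.467 (edgeR) and -0.568 (DESeq2) for DOX against control, and -0.110 and -0.203 for IL-17A against control. With each library left out, *Csf3* lay between -0.351 and 1.61 for DOX against control, *Csf1* between -0.0934 and 0.491 for IL-17A against control and between -0.271 and 0.0496 for the average IL-17A effect, and *Ccl2* between -0.0399 and 0.337 for DOX+IL-17A against DOX. For the difference between IL-17A effects these ranges were -1.62 to 0.232 (*Cxcl1*), -0.599 to 0.910 (*Ccl20*) and -0.319 to 0.0578 (*Ccl2*).

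Equal replicate numbers occur in several groups. Same-numbered libraries deviated together with a mean correlation of 0.15 (13 pairs, 8 over 0.1), against -0.04 for others (50 pairs, 13 over 0.1, highest 0.47). Only DOX+IL-17A with IL-17A had 3 pairs all over 0.1. The labels give no pairing, and the block was fitted over all 13 libraries and not in that comparison alone. Calls that the block adds therefore do not rest on a known pairing. With the replicate number as a block (replicate block, 5 residual degrees of freedom) the counts were 6 and 7 for DOX without and with IL-17A, 0 and 0 for IL-17A without and with DOX, 0 for the difference, 8 for the average DOX effect and 1 for the average IL-17A effect. For DOX without and with IL-17A, 11.2% and 11% of all tested genes were called in either direction with the block. For the average DOX and the average IL-17A effect these shares were 13.5% and 0.106%. *Csf1* (0.81) and *Csf2* (adjusted p = 0.072) were then no longer called with DOX alone, and *Cxcl1* and *Csf3* were called with IL-17A present. Number 4 occurs only in the DOX group, so DOX replicate 4 carried no weight in DOX against control with the block. *Csf1* for IL-17A against control was -0.0421 and *Ccl20* for the difference 0.394 with the block.

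With scaling by library size, the median over all tested genes shifted (log2) from 0.09 to 0.24 for DOX alone, from 0.02 to 0.22 for DOX with IL-17A and from 0.06 to 0.23 on average. In the first 2, 8 and 5 of the 9 genes were called, with 16.3% and 11.3% of all tested genes called in either direction. *Ccl2*, *Csf2* and *Il6* had at most 10 reads over all libraries of a group without DOX, which limits the precision of their folds.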

Other observations

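The neighbours of the CXCR2 ligand genes on chromosome 5 did not move as 1 block. Within 200 kb on either side of *Cxcl1*, *Cxcl2* and *Cxcl5*, 12 protein-coding genes are annotated and 9 were tested. Beside the 3 genes described above, *Cxcl3* had an average DOX effect of 2.48 (adjusted p = 0.0054, limma) and *Epgn*, the gene of the EGF-family ligand epigen, one of 1.24 (adjusted p = 0.0023). *Ppbp*, a chemokine gene between *Cxcl5* and *Cxcl3*, had 0.98 (adjusted p = 0.023), under the required fold change. *Mthfd2l*, a folate enzyme gene just after *Cxcl2*, fell by 1.32 (adjusted p = 0.00086), and *Rassf6* had -0.77 (adjusted p = 0.042), under the required fold change. The other tested neighbour, *5830473C10Rik*, had -0.24 (adjusted p = 0.55). *Epgn* had a mean value of 0.08 in control and of 0.08 with IL-17A, so the limit given for *Ccl2*, *Csf2* and *Il6* applies to it as well. The average IL-17A effect on these 6 neighbours lay between -0.65 (*5830473C10Rik*) and 1.02 (*Cxcl3*) and none was called, against 2.70 for *Cxcl5*. *Pf4*, *Cxcl15* and *Ereg* were not analysed here. Around *Ccl2* and *Ccl7* on chromosome 11, *Ccl2* was the 1 gene tested of 9 annotated in the same span.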
